A study of Mus musculus with 16 samples.

Results

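Transcripts of 9 genes of the tight junction were followed across 16 RNA-seq libraries of mIMCD3, an epithelial line established from the inner medullary collecting duct of the mouse kidney. The genes were taken by symbol, as 7 claudins (Cldn1, Cldn3, Cldn4, Cldn6, Cldn7, Cldn8 and Cldn12), occludin (Ocln) and Tjp1, which encodes the scaffold protein ZO-1. They were 9 of the 55367 genes in the deposited count tables. Of these, 8 had enough counts to be tested, and Cldn8 had 0 counts in all 16 libraries.

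Tight junctions seal the space between neighbouring epithelial cells and set which ions can pass through it. Claudins are membrane proteins that pair across that space, some as barriers and some as channels, and occludin and its relatives join the same strands. ZO-1 binds the tails of most claudins inside the cell and ties the strands to actin. In the collecting duct, which runs through the most concentrated tissue of the body, claudin-4 and claudin-8 act together in the paracellular path for chloride, and claudin-7 is found there as well, both at the junction and along the basolateral membrane.

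The study asked how activation of Nrf2, a transcription factor of the antioxidant response, alters gene expression under hyperosmotic stress. Wild-type (WT) cells received DMSO, the solvent, or 10 µM sulforaphane (SFN), an activator of Nrf2, for 5 h and were then left under isosmotic conditions or kept at 600 mOsm for 1 h or 6 h, which gave 6 groups. Nrf2-/- cells all received SFN and were either left isosmotic or kept at 600 mOsm for 1 h, which gave the other 2 groups. Each group had 2 libraries, described as biological replicates. The Nrf2-/- line was made with Cas9 and guide RNA delivered by lentivirus and was selected with blasticidin and puromycin, with no picking of single clones described. Nrf2-/- cells with DMSO were not analysed here, so an effect of the genotype and a difference between the lines from another source cannot be told apart.

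Total counts lay between 34484296 and 50774875 per library, and the 9 genes took between 0.0581% and 0.105% of them. The transcript of the targeted gene, Nfe2l2, lay between 64.0 and 149 CPM (counts scaled to a common library size with TMM factors) in the 12 WT libraries and between 11.02 and 11.63 CPM in the 4 Nrf2-/- libraries. All 10 markers of kidney tubule epithelium were present in every group, with a summed level between 2491 and 5627 CPM. Markers of collecting duct principal cells were nearly absent, with a sum of 1.34 to 4.36 CPM in isosmotic and 1 h libraries and 13.4 to 23.0 CPM at 6 h, and Aqp2, the water channel that defines these cells, had at most 11 counts in any library. Summed markers of other cells lay between 29.0 and 167 CPM for podocytes, 2.50 and 27.6 for the proximal tubule, 0.161 and 5.46 for intercalated cells, 0 and 2.48 for the thick ascending limb, and 2583 and 4123 for fibroblasts, the last from Vim and Fn1 while Col1a2, Col3a1 and Pdgfrb had at most 3 counts in isosmotic WT libraries. The 2 Nrf2-/- SFN 1 h libraries stood apart from each other, with a biological coefficient of variation (BCV) of 0.348 against 0.0393 to 0.128 in the other 7 pairs. They share the error estimate of all comparisons, so results of the 9 genes that change without them are given both ways. Calls and counts for the lists of other junction genes, their regulators and cell markers come from the fit of all 16 libraries only. Whether those calls and counts change without these 2 libraries was not tested.

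Positions are given on mm10 (GRCm38) from GENCODE M21. Cldn3 (chr5:134986214-134987472, plus strand) and Cldn4 (chr5:134945119-134946934, minus strand) are neighbours 39279 bp apart that are read in opposite directions, and 40 exon bases of Cldn3 are shared with Wbscr25, a gene on the other strand. Cldn6 (chr17:23679249-23682446, plus strand) ends 137 bp from the end of another claudin, Cldn9, on the other strand. The stretch of up to 250 bases before the start site of each gene was taken from RefSeq (GRCm38.p6) and searched on both strands for the AP-1 site TGANTCA, the core of the antioxidant response element TGACNNNGC to which Nrf2 binds, the tonicity element core TGGAAA to which NFAT5 binds, a grainyhead-like site AACCNGTT and the E-box CAGGTG to which factors of the Snail type bind. The AP-1 letters TGACTCA followed by GC also match the antioxidant response element core, so the 2 motifs can overlap. Bases inside an annotated exon were left off, so the window of Cldn6 stops 116 bases before its RefSeq start site. Cldn4 fell in WT cells with SFN under isosmotic conditions and at 1 h of stress with DMSO. Its neighbour Cldn3 was lower in both comparisons, without a call in the fit of 16 libraries. In the fit of the 12 WT libraries alone Cldn3 passed in both (edgeR adjusted p = 0.00253 and 0.0132). Cldn1 was highest in Nrf2-/- cells, and Cldn6 rose with stress in WT cells. The windows of these genes are shown 5′ to 3′ toward the gene, with matches in capitals.
Cldn4, chr5:134946935-134947184, minus strand: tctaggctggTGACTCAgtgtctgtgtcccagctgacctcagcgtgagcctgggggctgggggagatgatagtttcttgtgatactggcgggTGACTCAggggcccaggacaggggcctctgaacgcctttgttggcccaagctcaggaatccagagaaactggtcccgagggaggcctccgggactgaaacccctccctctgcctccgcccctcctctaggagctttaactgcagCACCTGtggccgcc
Cldn3, chr5:134985964-134986213, plus strand: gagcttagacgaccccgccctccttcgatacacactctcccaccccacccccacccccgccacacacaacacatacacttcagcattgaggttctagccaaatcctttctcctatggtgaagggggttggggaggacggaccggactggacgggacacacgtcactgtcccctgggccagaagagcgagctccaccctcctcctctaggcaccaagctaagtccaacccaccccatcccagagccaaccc
Cldn1, chr16:26371842-26372089, minus strand: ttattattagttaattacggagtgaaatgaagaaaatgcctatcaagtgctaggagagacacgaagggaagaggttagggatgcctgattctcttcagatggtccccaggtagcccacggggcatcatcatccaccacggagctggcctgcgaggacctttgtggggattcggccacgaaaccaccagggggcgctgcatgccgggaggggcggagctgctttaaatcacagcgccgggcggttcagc
Cldn6, chr17:23679115-23679248, plus strand: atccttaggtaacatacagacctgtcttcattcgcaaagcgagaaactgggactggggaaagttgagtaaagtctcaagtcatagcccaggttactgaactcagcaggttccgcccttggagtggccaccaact

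The Cldn4 window held the AP-1 letters at 2 places, 240 and 158 bases before the start site. Neither place was followed by GC, so neither matched the antioxidant response element core. The E-box lay at 14 bases before the start site, on the opposite strand. None of the 5 motifs was matched in the windows of the other 7 genes that had a sequence there. No window was found for Cldn8. AP-1 letters were present in 6.75% of the 32851 promoter windows of 250 bases, the antioxidant response element core in 10.2%, the tonicity element core in 18.6%, the grainyhead-like site in 1.79% and the E-box in 17.2%. The motifs were chosen after the expression values were known, and a match is a description of the sequence only.

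To compare genes with each other, levels were divided by exon length and are given as CPM per kb. In WT cells with DMSO under isosmotic conditions Cldn4 was by far the most abundant, at 201 ± 15.8 CPM per kb (SD, n = 2). Cldn7 (39.3 ± 5.79 CPM per kb), Cldn12 (33.8 ± 2.58), Cldn3 (29.5 ± 1.39) and Tjp1 (27.8 ± 4.92) followed, and neither Cldn7 and Cldn12 nor Cldn3 and Tjp1 were separated beyond the spread of their libraries. Cldn1 (4.76 ± 0.506 CPM per kb) and Ocln (3.05 ± 0.0345) were lower. Cldn6, a claudin of embryonic epithelia, was close to the limit of detection with 2 and 4 counts. Cldn8 had 0 counts throughout, and 3 counts, the level that a count of 0 allows, correspond to between 0.0556 and 0.0935 CPM depending on the library. Transcripts of claudin-4 were thus abundant where those of its collecting duct partner claudin-8 were not detected.

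Cldn4 led in all 8 groups, but by different margins. With SFN under isosmotic conditions it stood at 45.8 ± 1.06 CPM per kb, followed by Cldn12 (34.0 ± 3.13), and after 6 h of stress it reached 269 CPM per kb with DMSO and 295 with SFN. In Nrf2-/- cells under isosmotic conditions Cldn4 (95.8 CPM per kb) and Cldn7 (86.4 ± 2.46) were the highest, Cldn1 stood in the fourth place (36.0 CPM per kb), above Cldn12 (19.6 ± 0.649), and Cldn3 was at 9.91 ± 0.199 CPM per kb, below Ocln (12.2 ± 0.166). In the Nrf2-/- 1 h libraries the values of Cldn4 and Cldn7 overlapped.

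**Figure D1:**
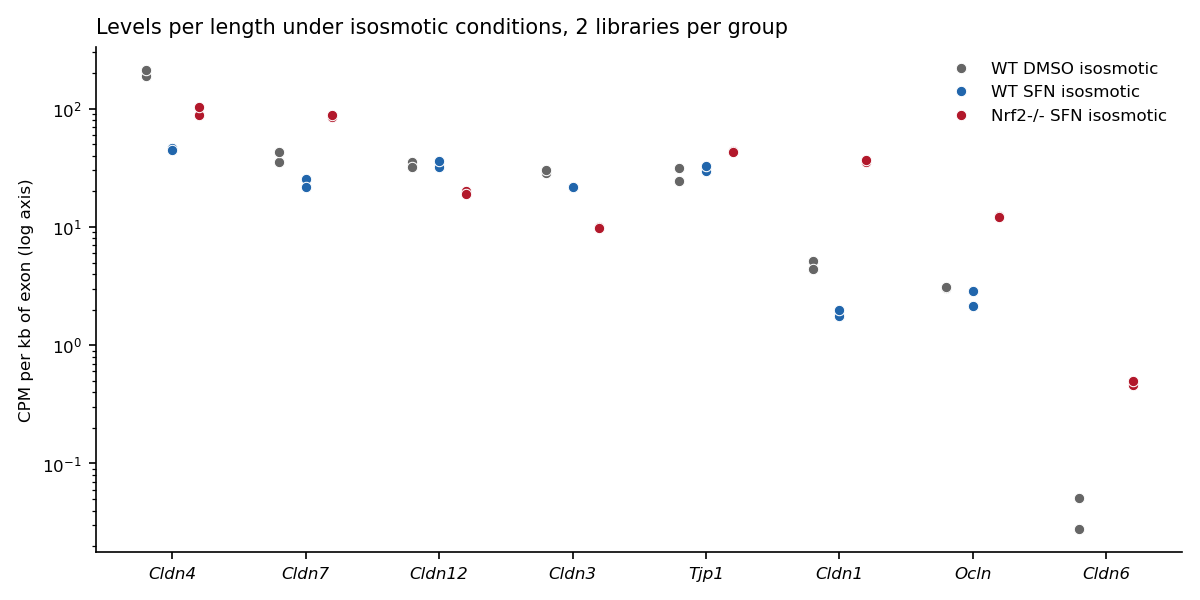
Levels of 8 genes under isosmotic conditions, as CPM per kb of exon on a log axis, with 1 point per library and 2 libraries for each of 3 groups. Cldn4 is at 201 CPM per kb in WT cells with DMSO and 45.8 with SFN, Cldn1 and Ocln are highest in Nrf2-/- cells, and Cldn6 in WT cells with SFN is left out because it had 0 counts.

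Under isosmotic conditions 3 claudins of WT cells were lower with SFN. Cldn4 stood at 344.7 and 385.3 CPM with DMSO and at 84.5 and 81.7 CPM with SFN. Cldn1, a barrier-forming claudin, stood at 24.8 and 21.3 CPM with DMSO and at 8.61 and 9.56 CPM with SFN. Cldn7 stood at 68.6 and 84.5 CPM with DMSO and at 49.9 and 42.4 CPM with SFN. In each of the 3 genes both SFN libraries lay below both DMSO libraries. Cldn4 fell 4.39-fold (log2 fold change -2.13, standard error 0.13, adjusted p = 1.26e-06, edgeR's quasi-likelihood test with Benjamini-Hochberg adjustment over 19509 genes). Cldn1 fell 2.53-fold (log2 fold change -1.34, standard error 0.21, adjusted p = 0.00221, same edgeR test). Cldn7 fell 1.66-fold (log2 fold change -0.73, standard error 0.18), with an edgeR adjusted p of 0.0491 that is close to the threshold of 0.05. Its call was lost without any 1 of 14 of the libraries, with an adjusted p of up to 0.419 without DMSO isosmotic replicate 2, and held without either Nrf2-/- SFN 1 h library. As these are bulk libraries, less transcript per cell and fewer cells with the transcript cannot be told apart.

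Thus 3 of the 8 tested genes were lower and 0 higher with SFN, where 1.76% of all tested genes were lower and 2.84% were called in either direction. Their median log2 fold change was -0.36 with Cldn6 at its bound, against 0.00 over all genes. Cldn3 went from 35.9 and 38.4 to 27.3 and 27.2 CPM without passing the test (log2 fold change -0.45, edgeR adjusted p = 0.149), and it did pass in a fit of the 12 WT libraries alone (adjusted p = 0.00253). In that fit 5 of the 8 genes were called, against 15.2% of all genes, the fifth being Cldn6, which went from 2 and 4 counts to 0 and 0. Cldn12, an unusual claudin that lacks the usual tail for binding ZO-1, was at 150.8 and 135.3 CPM with DMSO and 134.6 and 153.3 with SFN, and the 95% interval of its log2 difference ran from -0.28 to 0.30. Ocln (12.8 and 13 CPM with DMSO, 9.04 and 12.1 with SFN) and Tjp1 (244.0 and 189.7 CPM with DMSO, 230.7 and 253.2 with SFN) did not pass the test either.

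The other junction genes were read from lists for each kind of junction. Their counts with SFN stand beside 2.84% of all genes called, with 1.76% lower. With SFN, 1 of 14 tested claudin relatives was lower, 1 of 13 other tight junction membrane proteins was lower, and of 31 scaffold and polarity genes 1 was higher and 1 lower. Igsf5 fell by 0.68 on the log2 scale (edgeR adjusted p = 0.0254). Pard6b, part of the polarity complex that places the junction, fell by 0.60 on the log2 scale, and Arhgef18, an activator of RhoA at the junction, rose by 0.53. In the adherens junction 3 of 13 genes were lower and 0 higher, among them Cdh1, E-cadherin, from 225 to 143 CPM (log2 fold change -0.66, edgeR adjusted p = 0.000559). In the gap junction 1 of 4 was lower, Gjb2, which fell by 1.38 on the log2 scale, and 1 of 10 desmosome genes, Pkp3, was lower. Of 15 transcription and splicing factors of epithelial junction genes, 4 were lower and 0 higher, namely Ovol1 (log2 fold change -1.69), Klf4 (-1.17), Grhl2 (-0.50) and the splicing factor Esrp1 (-0.42). Of 7 repressors of these genes, such as Zeb1 and Snai1, 0 were called. Markers of kidney tubule epithelium moved the same way, with 5 of 10 lower and 0 higher and a sum of 3424 to 3830 CPM with DMSO and 2491 to 2719 CPM with SFN. Keratin genes were among them, Krt7 falling by 0.98 and Krt19 by 0.72 on the log2 scale, and the part of a general change of epithelial transcripts in the claudin result was not tested.

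**Figure D2:**
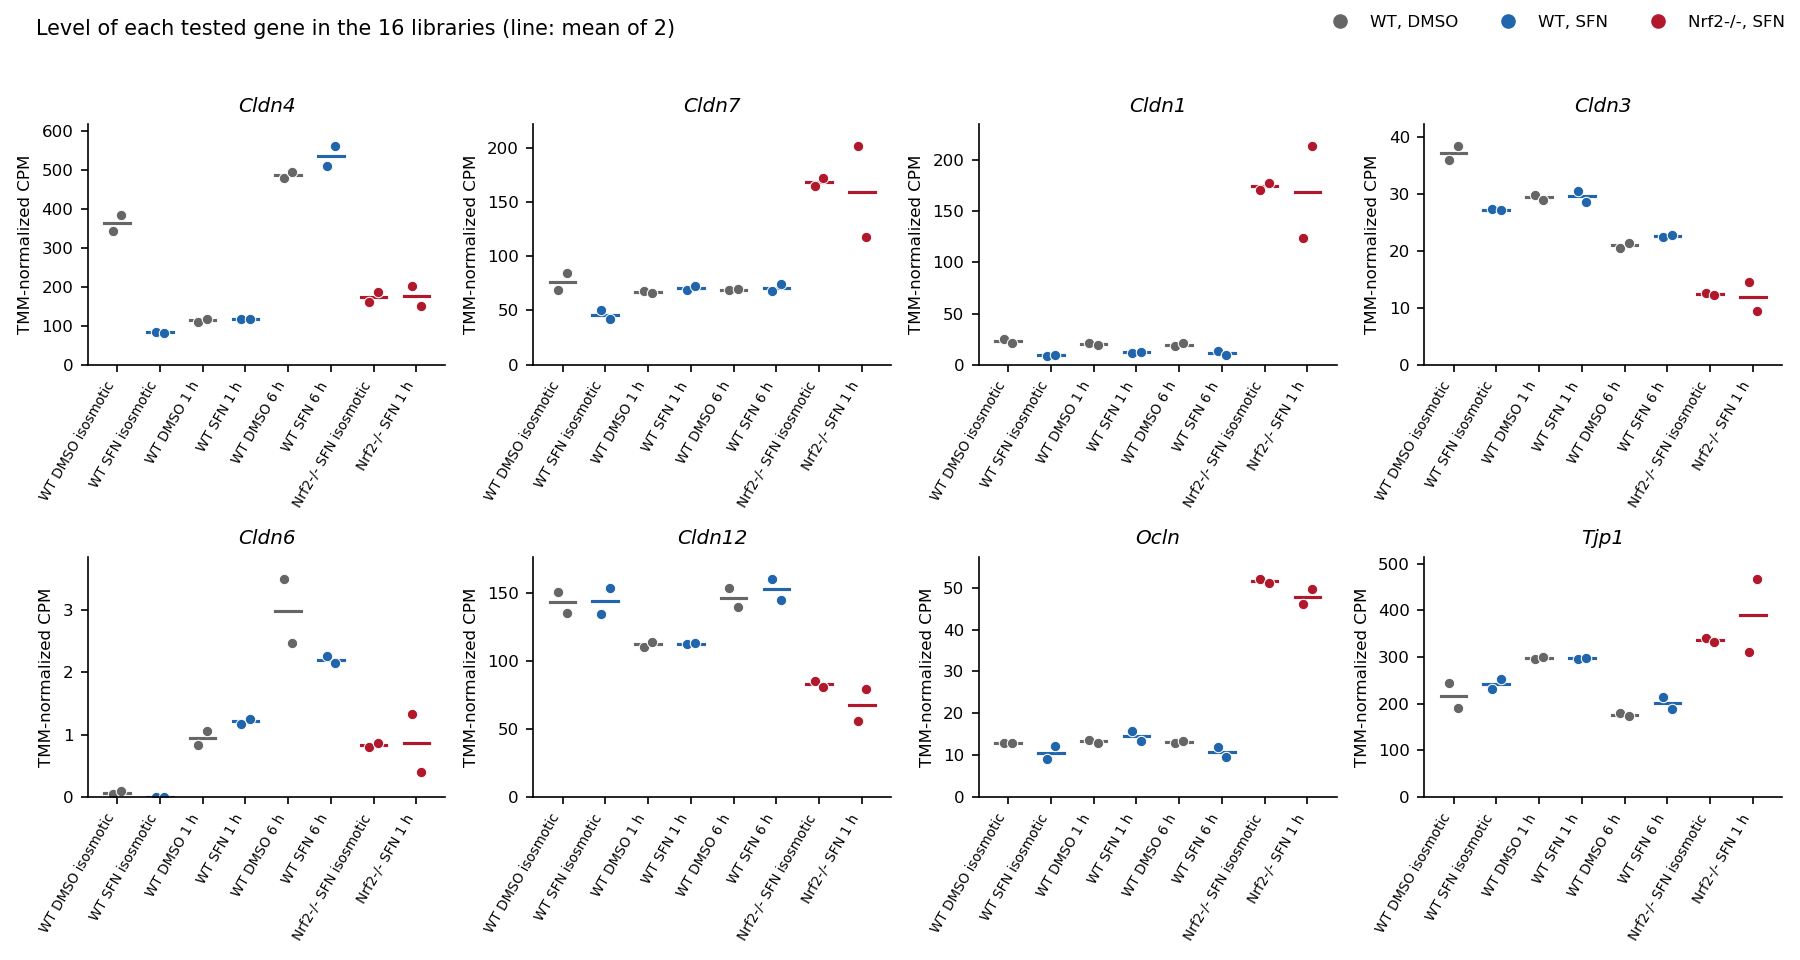
Level of each of the 8 tested genes in the 16 libraries, as TMM-normalized CPM on axes that start at 0, with 1 point per library and a line at the mean of 2. In WT cells Cldn4 is low with SFN under isosmotic conditions and at 1 h of stress, and it is highest at 6 h. Cldn1, Cldn7 and Ocln are highest in Nrf2-/- cells, and the 2 Nrf2-/- 1 h libraries lie far apart for Cldn1, Cldn7 and Tjp1.

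Hyperosmotic stress for 1 h lowered Cldn4 and raised Cldn6 in DMSO-treated WT cells. Cldn4 fell from 344.7 and 385.3 CPM to 110.8 and 118.5 CPM, so both stressed libraries lay far below both isosmotic libraries. The change was 3.18-fold (log2 fold change -1.67, standard error 0.13, adjusted p = 2.17e-06, edgeR's quasi-likelihood test). Cldn6 went from 2 and 4 counts to 37 and 40 counts (edgeR adjusted p = 0.00194), a ratio of normalized counts of 13.7 with a 95% counting interval from 6.00 to 38.4. Counting intervals take each count as independent. These 2 of 8 genes compare with 11.2% of all genes. The comparison with SFN above and those at 1 h and 6 h with DMSO share the isosmotic DMSO libraries.

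The other 6 genes did not pass the test at 1 h. Tjp1 stood at 296.8 and 301.1 CPM, above both isosmotic libraries (log2 fold change 0.46, edgeR adjusted p = 0.0791). Cldn3 stood at 29.8 and 29.0 CPM and Cldn12 at 110.2 and 113.6 CPM, below both isosmotic libraries of the respective gene (edgeR adjusted p = 0.186 and 0.120). In the fit of the 12 WT libraries alone these 3 genes passed (edgeR adjusted p of 0.00171 for Tjp1, 0.00400 for Cldn12 and 0.0132 for Cldn3), which made 5 of 8 genes against 22.9% of all genes. Cldn1 (21.4 and 19.5 CPM), Cldn7 (68.3 and 66.0) and Ocln (13.7 and 12.9) passed in neither fit.

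The list counts at 1 h with DMSO stand beside 11.2% of all genes called. Among the relatives, 4 of 14 claudin relatives were higher. Cldn18 and Cldn19 had 0 counts in the isosmotic libraries and a mean of 0.442 and 0.400 CPM at 1 h. Cldn11, a claudin of myelin and testis, went from 0 and 12 to between 65 and 70 counts, and Cldn15, a cation channel, from 0.748 to 1.62 CPM (log2 fold change 1.12, edgeR adjusted p = 0.0336). None of 13 other tight junction membrane proteins, 13 adherens junction genes or 10 desmosome genes was called, whereas 2 of 4 gap junction genes were lower, Gjb2 (log2 fold change -0.92) and Gjc1 (-0.39). Of the scaffold and polarity genes 2 of 31 were higher, Tjp3 (0.58), which encodes ZO-3, and Arhgef18 (0.36), and 1 was lower, Pard6b (-0.44). Of the junction transcription factors Ovol1 (-1.42) and Klf5 (-0.84) fell and Klf4 (1.03) rose.

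After 6 h Cldn4 had returned above its isosmotic level. With DMSO it stood at 481.2 and 496.1 CPM, higher than in the isosmotic libraries (log2 fold change 0.42, standard error 0.13, edgeR adjusted p = 0.0142) and 4.26-fold higher than at 1 h (log2 fold change 2.09, edgeR adjusted p = 2.35e-08). The call against the isosmotic level was lost without DMSO isosmotic replicate 1 (adjusted p = 0.125), DMSO 6 h replicate 1 (0.0548) or DMSO 6 h replicate 2 (0.0789), while that against 1 h held without any 1 library. Cldn6 stood at 121 and 80 counts, a ratio of 43.7 to the isosmotic level (95% counting interval 19.7 to 120, edgeR adjusted p = 9.55e-06) and of 3.20 to the 1 h level (2.45 to 4.21). Cldn3 went in the other direction, to 20.6 and 21.3 CPM, and its fall of 1.77-fold from the isosmotic level (log2 fold change -0.83, edgeR adjusted p = 0.000450) held without any 1 library.

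Against the isosmotic level 3 of 8 genes were called at 6 h with DMSO, where 45.9% of all genes were, so the share of the junction genes was no larger than the background. In the fit of the 12 WT libraries alone 4 of 8 passed, against 57.6% of all genes, the addition being Tjp1, which was lower than without stress (log2 fold change -0.27, edgeR adjusted p = 0.0217, and 0.00304 without the 2 Nrf2-/- SFN 1 h libraries). Against 1 h, 5 of 8 were called, where 42.4% of all genes were. Tjp1 was part of these, at 179.5 and 173.7 CPM after 6 h, a fall of 1.69-fold from its 1 h level (log2 fold change -0.76, edgeR adjusted p = 0.00135), and so was Cldn12, at 153.0 and 139.1 CPM (log2 fold change 0.38, edgeR adjusted p = 0.0342). The call of Cldn12 was lost without any 1 of 8 libraries (adjusted p of up to 0.202 without DMSO 6 h replicate 1), that of Cldn3 against 1 h (0.0175) without any 1 of the 4 libraries compared (up to 0.0976) and that of Cldn6 against 1 h (0.00909) without DMSO 1 h replicate 1 (0.0832) or DMSO 6 h replicate 1 (0.0842). Cldn1 (18.0 and 21.0 CPM), Cldn7 (68.4 and 69.5) and Ocln (12.8 and 13.4) were not called in either comparison.

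At 6 h with DMSO other junction genes were called in both directions, and their counts stand beside the 45.9% of all genes called. Pard6b rose from 111 to 459 CPM (log2 fold change 2.05, edgeR adjusted p = 1.90e-09), and Mpp5, its partner in polarity, rose by 1.26, while the scaffold Magi1 (-1.21) and Patj (-0.59) fell, in a list with 7 of 31 genes higher and 6 lower. Of the other tight junction membrane proteins 6 of 13 were higher, among them F11r (0.87), which encodes the adhesion molecule JAM-A, and Epcam (0.56), and 2 were lower, Marveld2 (-0.99) and Marveld3 (-0.58), both of the occludin family. Among 13 adherens junction genes 8 were higher, including Cdh1 (0.79), and 2 lower, and among 10 desmosome genes 4 were higher, led by Dsp, desmoplakin, which rose from 265 to 1138 CPM, and 3 lower. Of the transcription factors 7 of 15 were higher, including Klf4 (2.73), Ehf (2.31) and Klf5 (1.14), and 3 lower, including Ovol1 (-1.16) and Grhl1 (-0.78). Of 7 repressors of junction genes Twist1 (1.89) and Twist2 (1.54) were higher and Snai3 (-2.17) and Zeb2 (-0.62) lower. In the gap junction 1 of 4 was higher and 2 lower, and of the claudin relatives 5 of 14 were higher and 1 lower. Summed markers of endothelium (4.52 to 6.11 CPM) and immune cells (7.04 to 10.8 CPM) were also higher in the 6 h libraries than in the isosmotic WT libraries (0.0476 to 0.26 and 1.93 to 3.18 CPM). The tubule epithelium sum was 5555 to 5627 CPM at 6 h with DMSO and 3424 to 3830 CPM before. What part these markers have in the results was not tested.

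In SFN-treated WT cells, 1 h of stress raised Cldn4 from 84.5 and 81.7 CPM to 117.1 and 116.9 CPM. This change of 1.41-fold (log2 fold change 0.49, standard error 0.13, edgeR adjusted p = 0.0255) lost its call without any 1 of the 4 libraries compared (adjusted p between 0.109 and 0.173). Cldn6 went from 0 and 0 to 45 and 50 counts, at least 18.4-fold higher with the isosmotic libraries set to 3 counts each (edgeR adjusted p = 0.000167). These 2 of 8 genes compare with 9.52% of all genes, and in the fit of the 12 WT libraries alone 7 of 8 passed, against 18.3%. Added there were Cldn7, at 68.6 and 72.5 CPM (log2 fold change 0.61, adjusted p = 0.000107 in that fit and 0.0508 in the fit of 16), Ocln, at 15.9 and 13.3 CPM (0.0363), Cldn1, at 11.9 and 12.5 CPM (0.0472), Tjp1, at 295.9 and 298.1 CPM (0.0414), and, as the single lower gene, Cldn12, at 112.2 and 112.7 CPM (0.00291). Cldn3, at 30.5 and 28.7 CPM, passed in neither.

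After 6 h with SFN, Cldn4 reached 510.3 and 561.8 CPM, 6.45-fold above its isosmotic level (log2 fold change 2.69, standard error 0.14, edgeR adjusted p = 2.11e-09). Cldn6 stood at 77 and 69 counts, at least 33.6-fold higher than in the isosmotic libraries (edgeR adjusted p = 3.82e-06). Cldn7 stood at 67.8 and 73.9 CPM, higher by 1.54-fold (log2 fold change 0.62, edgeR adjusted p = 0.0126), and lost its call without SFN isosmotic replicate 2 (0.117) or SFN 6 h replicate 2 (0.0818). These were 3 of 8 genes against 47.6% of all genes. Cldn1 (13.04 and 9.59 CPM), Cldn3 (22.4 and 22.7), Cldn12 (160.3 and 144.6), Ocln (11.8 and 9.53) and Tjp1 (215.0 and 188.3) were not called. In the fit of the 12 WT libraries alone Cldn3 (log2 fold change -0.26, edgeR adjusted p = 0.0177) and Tjp1 (-0.25, 0.0309) passed as lower, as they did without the 2 Nrf2-/- SFN 1 h libraries (0.0101 and 0.00629), which made 5 of 8 genes, 3 higher and 2 lower, against 59.7% of all genes.

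The counts of other junction genes in SFN-treated cells stand beside 9.52% of all genes called at 1 h and 47.6% at 6 h. At 1 h those that rose were 1 of 14 claudin relatives, 2 of 13 other membrane proteins, 1 of 31 scaffold and polarity genes, 4 of 13 adherens junction genes, 2 of 10 desmosome genes and 4 of 15 transcription and splicing factors, and 0 genes of these lists, of the gap junction or of the repressors were lower. Examples are Cdh1 (log2 fold change 0.68), Marveld2 (0.55) and Klf4 (2.11). At 6 h 8 of 13 adherens junction genes were higher and 2 lower, 10 of 15 factors higher and 1 lower, 5 of 13 other membrane proteins higher and 1 lower, and 6 of 31 scaffold and polarity genes higher and 10 lower. Of the desmosome genes 5 of 10 were higher and 4 lower, of the gap junction genes 1 of 4 higher and 2 lower, of the claudin relatives 4 of 14 higher and 1 lower, and of the repressors 3 of 7 higher and 2 lower. Ehf (2.83), Pard6b (2.77), Cdh1 (1.52) and Epcam (1.41) rose, and Magi1 (-0.97) and Arhgef18 (-0.91) fell. Markers of kidney tubule epithelium, which include Cdh1 and Epcam, moved with them, with 8 of 10 higher and 0 lower at 6 h and a sum of 5226 to 5502 CPM against 2491 to 2719 CPM before, and their part in these results was not tested.

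**Figure D3:**
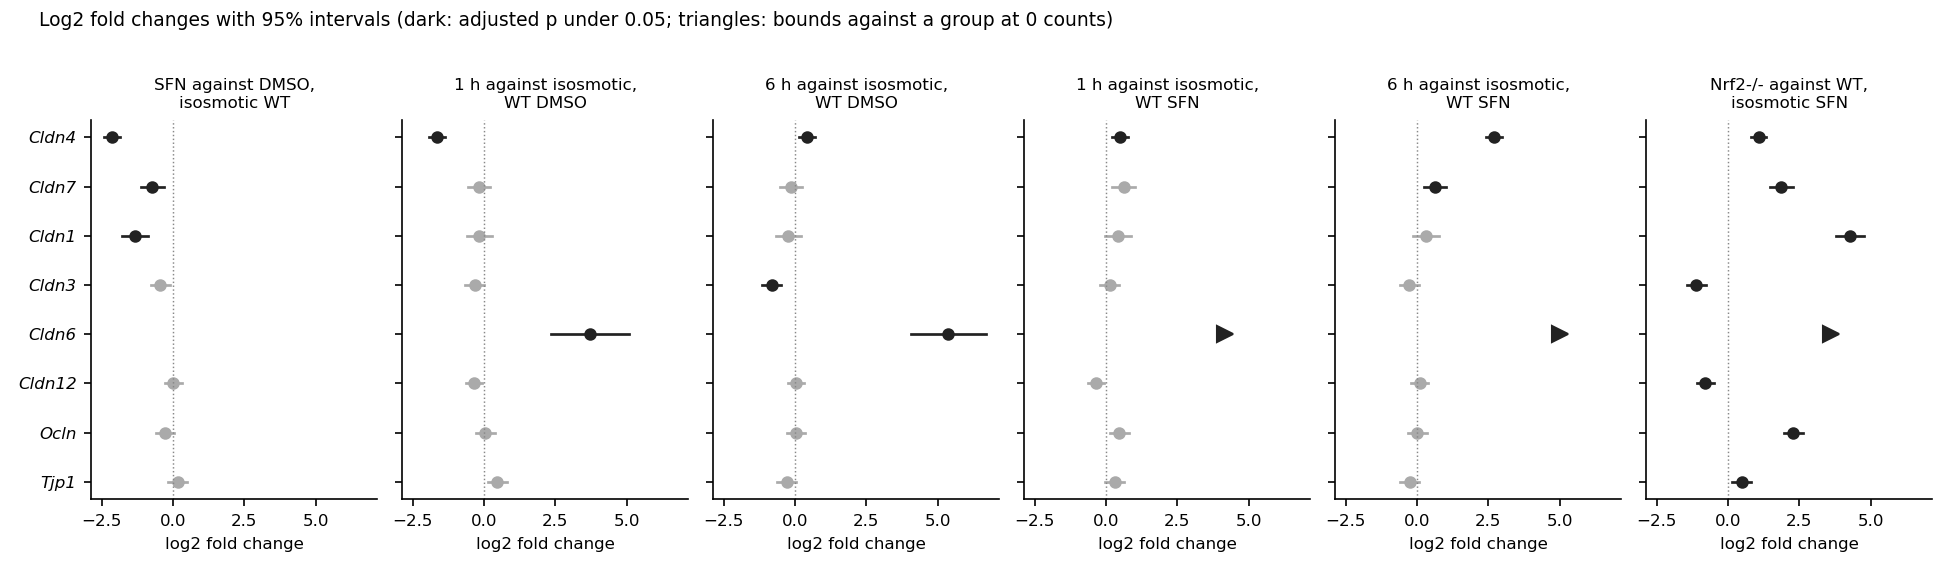
Log2 fold changes of the 8 tested genes in 6 comparisons, with 95% intervals from the edgeR fit, dark where the adjusted p was under 0.05, and with triangles at the lower bound where Cldn6 had 0 counts in the reference group. Cldn4 is at -2.13 with SFN, -1.67 at 1 h with DMSO and 2.69 at 6 h with SFN, and Cldn6 is not drawn for SFN against DMSO, where its counts were 2 and 4 against 0 and 0.

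To see whether SFN had an effect under stress, SFN and DMSO were compared at each time. At 1 h Cldn4 stood at 110.8 and 118.5 CPM with DMSO and 117.1 and 116.9 with SFN, so the groups overlapped, and the 95% interval of the log2 difference ran from -0.24 to 0.30. At 6 h the interval ran from -0.14 to 0.41. Of the 8 genes 0 were called at 1 h, with 0.0923% of all genes called, and 0 at 6 h, with 0.041% of all genes called (edgeR's quasi-likelihood test), and DESeq2 called 0 of them at either time. At an unadjusted p under 0.05 (edgeR) there was 1 gene at each time, Cldn1.

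Cldn1 was the gene in which the SFN difference was seen at all times, with a call under isosmotic conditions alone. Both SFN libraries lay below both DMSO libraries at 1 h (11.9 and 12.5 against 21.4 and 19.5 CPM) and at 6 h (13.04 and 9.59 against 18.0 and 21.0 CPM). The log2 fold change was -0.75 at 1 h (standard error 0.21, adjusted p = 0.740) and -0.78 at 6 h (standard error 0.21, adjusted p = 1.00) by edgeR's quasi-likelihood test. In the fit of the 12 WT libraries alone both passed, with edgeR adjusted p of 0.0103 and 0.0208, in a fit that called 0.533% of all genes at 1 h and 0.243% at 6 h. They also passed without Nrf2-/- SFN 1 h replicate 1 (0.000354 at 1 h and 0.000572 at 6 h) or replicate 2 (0.000552 and 0.000967). Whether the SFN difference of Cldn1 was smaller under stress was not shown, with log2 differences of 0.59 at 1 h and 0.56 at 6 h against the isosmotic effect (edgeR adjusted p = 0.687 and 0.642). At 1 h the edgeR adjusted p of this interaction was 0.129 in the fit of the 12 WT libraries alone. It was 0.0580 without the 2 Nrf2-/- SFN 1 h libraries.

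For Cldn4 the effect of SFN under stress did differ from that under isosmotic conditions. The difference of the log2 fold changes was 2.16 at 1 h (standard error 0.18, adjusted p = 6.86e-05) and 2.27 at 6 h (standard error 0.18, adjusted p = 2.76e-05), both by an interaction term in edgeR's quasi-likelihood test. It was the single member called in each test, with 0.559% of all genes called at 1 h and 0.759% at 6 h, and both calls held without any 1 library. Cldn7 had differences of 0.80 and 0.77 (edgeR adjusted p = 0.366 and 0.312), which passed in the fit of the 12 WT libraries alone (0.00113 and 0.00135), and Cldn3 passed in that fit at 6 h (0.0181). Other junction genes called in both interaction tests were Cdh1 (0.67 at 1 h and 0.74 at 6 h), Gjb2 (1.29 and 1.57) and Pard6b (0.70 and 0.72). The transcription factors Ovol1 (1.35 and 1.93) and Klf4 (1.09 and 1.27) were called in both as well. Ovol1 stood at 23.2 ± 1.71 CPM with DMSO alone, 7.19 ± 0.389 with SFN alone and 8.66 ± 0.176 after 1 h of stress with DMSO (SD, n = 2), and Gjb2 had means of 31.1, 11.96 and 16.4 CPM. Both were thus low after either treatment, as was Cldn4. Cdh1 was low with SFN alone (143 ± 6.32 CPM) and not after 1 h with DMSO (227 ± 6.46 against 225 ± 2.24 CPM without stress), and Klf4 rose at 1 h.

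**Figure D4:**
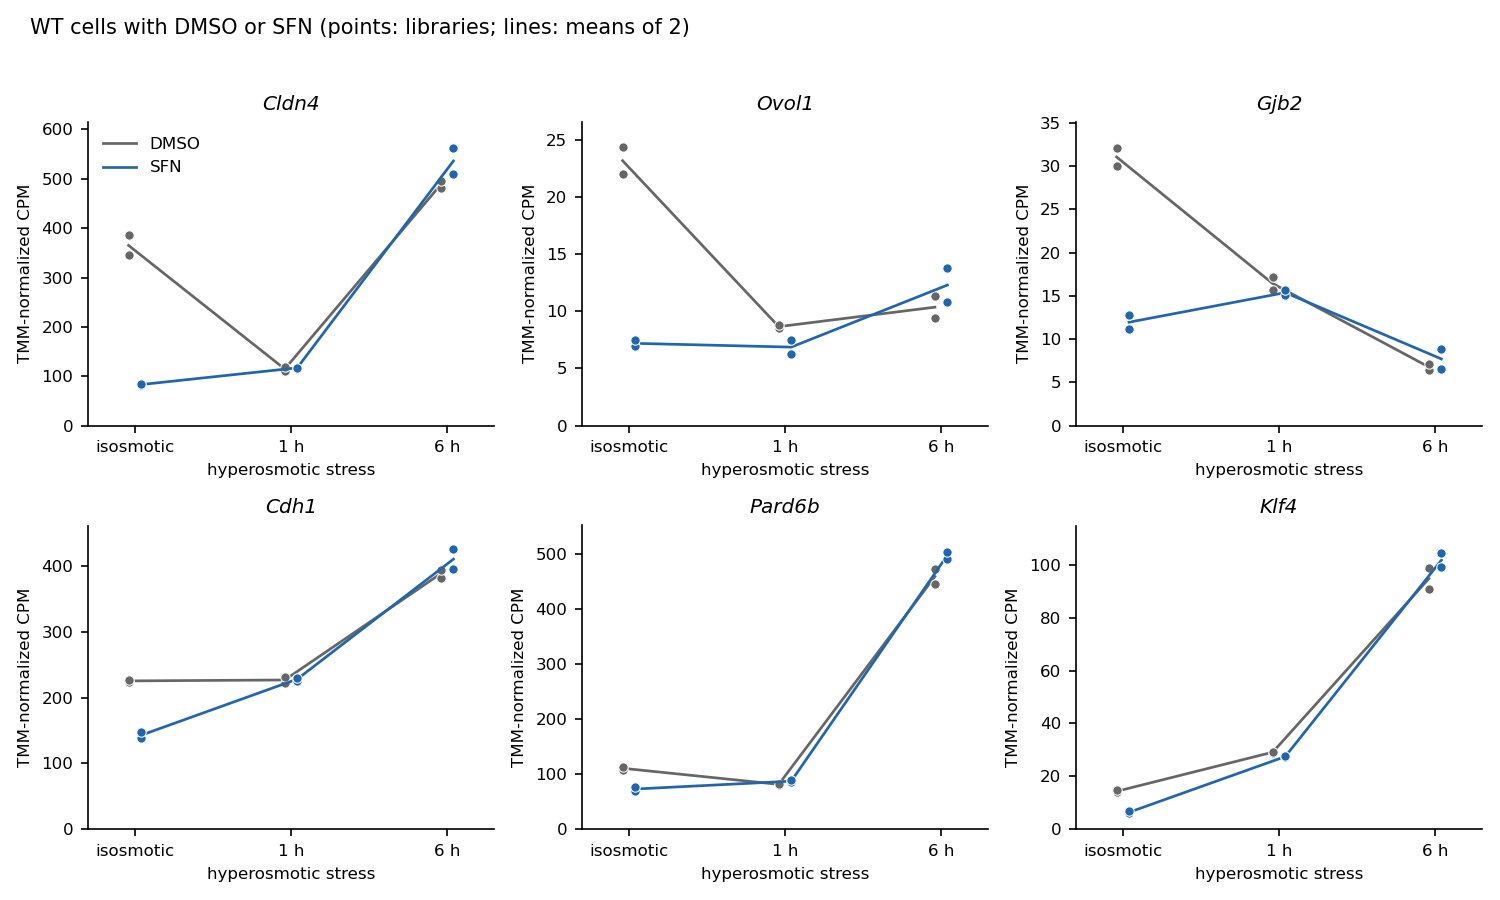
Levels of Cldn4, the junction genes Gjb2, Cdh1 and Pard6b and the transcription factors Ovol1 and Klf4, all with a called interaction. WT cells with DMSO (grey) or SFN (blue) are shown as TMM-normalized CPM by duration of stress, with points for libraries and lines through the means of 2. The DMSO and SFN lines are apart under isosmotic conditions and lie close together at 1 h and 6 h.

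Claudin transcripts were at other levels in Nrf2-/- cells than in WT cells. Both were treated with SFN, and under isosmotic conditions all 8 genes were called, 6 higher and 2 lower, where 34.1% of all genes were called, 15.7% higher and 18.4% lower. Cldn1 stood at 8.61 and 9.56 CPM in WT and 171.1 and 177.9 CPM in Nrf2-/- cells, a 19.2-fold difference (log2 fold change 4.26, standard error 0.23, edgeR adjusted p = 3.34e-09). Ocln stood at 9.04 and 12.1 CPM in WT and 52.2 and 51.2 CPM in Nrf2-/- cells, 4.87-fold higher (log2 fold change 2.28, edgeR adjusted p = 4.06e-08). Cldn7 stood at 49.9 and 42.4 CPM in WT and 164.9 and 171.7 CPM in Nrf2-/- cells, 3.65-fold higher (log2 fold change 1.87, edgeR adjusted p = 2.48e-06). In none of the 8 genes did the libraries of the lines overlap. This is a description only, as the share of all genes without overlap was not determined.

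Cldn4 was higher by 2.09-fold (161.0 and 186.8 CPM, log2 fold change 1.07, edgeR adjusted p = 1.50e-05) than in WT cells with SFN, and its level lay below the 344.7 and 385.3 CPM of WT cells with DMSO, which differ in both genotype and treatment. Tjp1 was higher by 1.39-fold (340.1 and 333.2 CPM, edgeR adjusted p = 0.0308), a call that was lost without any 1 of the 4 libraries compared (up to 0.184 without WT SFN isosmotic replicate 1). Cldn3 and Cldn12 were the lower genes. Cldn3 stood at 27.3 and 27.2 CPM in WT and 12.7 and 12.3 CPM in Nrf2-/- cells, 2.18-fold lower (log2 fold change -1.13, edgeR adjusted p = 4.92e-05), and Cldn12 at 134.6 and 153.3 against 84.8 and 80.9 CPM, 1.74-fold lower (log2 fold change -0.80, edgeR adjusted p = 0.000370).

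Cldn6 had 28 and 32 counts in Nrf2-/- cells against 0 and 0 in WT, at least 12.6-fold more with WT at 3 counts each (edgeR adjusted p = 5.56e-05). Its neighbour Cldn9, which ends 137 bp away, had at most 9 counts in any WT library and between 2599 and 3725 counts in the Nrf2-/- libraries (edgeR adjusted p = 8.12e-10). Whether the authors counted by strand is not given in the sources used here, and how far reads beyond the end of Cldn9 entered the Cldn6 counts was not tested. In the 6 h WT libraries, where Cldn6 had 69 to 121 counts, Cldn9 had at most 2 counts.

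After 1 h of stress 6 of the 8 genes differed between Nrf2-/- and WT cells with SFN, where 31.5% of all genes did (15.3% higher and 16.2% lower). Cldn1 (124.2 and 213.7 CPM in Nrf2-/- cells, log2 fold change 3.79), Ocln (46.0 and 49.7 CPM, 1.71), Cldn7 (201.4 and 117.5 CPM, 1.18) and Cldn4 (202.8 and 150.5 CPM, 0.59) were higher. Cldn3 (14.4 and 9.40 CPM, -1.31) and Cldn12 (55.9 and 79.4 CPM, -0.73) were lower, with edgeR adjusted p from 1.05e-08 for Cldn1 to 0.00249 for Cldn4 over the 6 genes. Fitted by edgeR on the 4 libraries compared, Cldn4 (adjusted p = 0.135), Cldn7 (0.0728) and Cldn12 (0.107) were not called. In the fit of 16, Tjp1 (309.9 and 468.3 CPM, edgeR adjusted p = 0.0769) and Cldn6 (47 and 14 counts, adjusted p = 0.482) were not called.

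Other epithelial junction genes and their regulators were called in both directions between the lines under isosmotic conditions. Their counts stand beside 34.1% of all genes called, 15.7% higher and 18.4% lower in Nrf2-/- cells. Of 10 markers of kidney tubule epithelium, which include Cdh1, Cdh16 and Epcam, 3 were higher and 4 lower. Among 13 other tight junction membrane proteins, Epcam (48.8 to 284 CPM, log2 fold change 2.54), Marveld2 (1.31), which encodes tricellulin, and F11r (0.53) were higher in Nrf2-/- cells and 2 were lower, Ildr1 and Ildr2, both with 0 counts in the Nrf2-/- libraries. In the gap junction 3 of 4 were higher and 0 lower, with Gjb2 rising from 11.96 to 295 CPM (log2 fold change 4.63, edgeR adjusted p = 1.83e-11). Of the adherens junction genes 4 of 13 were higher, including Cdh1 (1.62), and 3 lower, including the kidney cadherin Cdh16 (-3.29). Of the desmosome genes 4 of 10 were higher and 4 lower, and of the scaffold and polarity genes 7 of 31 were higher and 6 lower, among them Pard3b with 0 counts in both Nrf2-/- libraries.

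Among the 15 factors of epithelial junction genes, 7 were higher, including Ovol2 (log2 fold change 3.85), Klf4 (2.50), Grhl2 (1.76) and Esrp1 (1.70), and 4 lower, including Elf3 (-1.40) and Ehf, which had 0 counts in both Nrf2-/- libraries and 288 to 549 in WT. Of the 7 repressors Zeb1 fell from 17.9 to 0.613 CPM (log2 fold change -4.87, edgeR adjusted p = 4.18e-10), Snai1 by 2.05, and Twist1 went from 321 to 339 counts to 0 in both libraries, while Snai3 (0.77) and Tcf4 (0.68) rose. Of 7 markers of fibroblasts and mesenchyme 3 were higher and 3 lower, Vim among the lower ones (log2 fold change -2.71, edgeR adjusted p = 3.90e-09). The summed markers of fibroblasts were at 2583 to 2785 CPM in WT and 3095 to 3237 CPM in Nrf2-/- cells. The part of these factors in the claudin levels was not tested. After 1 h of stress the lines differed in Gjb2 (log2 fold change 4.13), Epcam (1.93), Grhl2 (1.40), Esrp1 (1.18), Cdh1 (0.96) and Zeb1 (-4.93) as well. List counts at 1 h stand beside 31.5% of all genes called. Of 13 other tight junction membrane proteins 2 were higher and 3 lower, of 15 factors 7 and 5. Of 31 scaffold and polarity genes 8 were higher and 8 lower, of 13 adherens junction genes 4 and 3. Of 10 desmosome genes 4 were higher and 4 lower, of 4 gap junction genes 3 and 0, of 7 repressors 1 and 3. Among 10 tubule epithelium markers 3 were higher and 4 lower.

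In Nrf2-/- cells themselves, 1 h of stress changed 0 of the 8 genes by edgeR's quasi-likelihood test, where 7.17% of all genes were called, 0 had an unadjusted p under 0.05 and DESeq2 called 0. The libraries were far apart, with Cldn1 at 124.2 and 213.7 CPM on either side of the isosmotic 171.1 and 177.9 CPM, and Cldn7 at 201.4 and 117.5 on either side of 164.9 and 171.7. Left with either 1 h library alone, calls appeared, for Cldn3 (adjusted p = 0.0278), Cldn7 (0.000858) and Tjp1 (0.00139) without replicate 1, and for Cldn1 (0.00722) and Cldn12 (0.000257) without replicate 2 (edgeR). Cldn4, which stood at 161.0 and 186.8 CPM before and 202.8 and 150.5 CPM after stress, had a 95% interval of its log2 change from -0.25 to 0.30. Cldn6 had 28 and 32 counts before and 47 and 14 after, and its change differed from that in WT cells with SFN, which started at 0 counts (interaction, edgeR adjusted p = 0.0162). That call, the single member called where 0.123% of all genes were, was lost without any 1 of the 6 other libraries of the contrast (adjusted p between 0.0503 and 0.157).

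As a description, the means of the 8 groups were correlated between genes, with the 2 Nrf2-/- groups apart from the others for most genes. Cldn1 and Ocln had r = 0.97, Cldn1 and Cldn7 0.964, Cldn7 and Ocln 0.959 (n = 8 group means), and Cldn12 went the other way from Ocln (r = -0.928). Cldn4 had r between -0.662 with Tjp1 and 0.445 with Cldn6, and thus followed none of the other 7 genes closely. Among tested genes with a mean of at least 50 counts per library, the patterns closest to Cldn4 were those of Itprip (r = 0.979) and Cdkn1a (r = 0.97). Those closest to Cldn1 were Pdia5 (0.997) and Npr3 (0.994), and Cldn3 was closest to Ifi204 (0.995) and Ndufs3 (0.994). Ocln was closest to Gask1b (0.993) and Esrp1 (0.993), Cldn7 to Adamts5 (0.988) and Sardh (0.987), and Cldn6 to Adgrl2 (0.974) and Abat (0.972). Cldn12 was closest to Fignl2 (0.990) and Tmem208 (0.988), and Tjp1 to Caprin1 (0.989) and Smc2 (0.988).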

How the data were processed

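RNA was extracted with TRIzol and sequenced on a NovaSeq instrument. The authors aligned the reads to mm10 with Hisat2 and deposited, for each library, whole-number read counts per gene from featureCounts. The submitters' processing notes also name Bowtie2, and versions, annotation and strand setting are not given in the sources used here. Between 58.0% and 68.5% of the counts from 1 to 10 in a library were even, and 5 lines without a gene name were left out.

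The 16 libraries of 8 groups (2 each) were fitted together with edgeR 4.0.16 in R 4.3.3, with 1 coefficient per group, TMM factors, the filterByExpr filter (19509 of 55367 genes tested) and the robust quasi-likelihood F test. A gene was called at a Benjamini-Hochberg adjusted p under 0.05 over all genes tested, in 11 comparisons and 3 interactions. DESeq2 1.42.0 was an alternative, with RLE factors, other filters, other sets of libraries and each library left out in turn. Statistics were checked on simulated data for 1 h against isosmotic with DMSO. Of genes given a log2 change of 0.5, 10 of 67 were called, against 50 of 67 at a change of 1 and 64 of 66 at 2. The simulated spread was the same in all groups, unlike that of the data. Where a group had 0 counts of Cldn6, a fold is a lower bound with 3 counts set per library, and where it had 2 and 4 a ratio with a 95% counting interval is given. Intervals and floors of this kind cover counting error only and take each count as independent. Most low counts were even. If counts entered in pairs, which was not tested, the intervals would be too narrow and the floors too low.

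The 9 genes and the 8 lists of junction genes and 9 of cell markers were chosen with earlier results of these data known, and some listed genes are not reported here and were left out of the counts of their lists. From a list, the called genes with the largest change were named, up to 4 in each direction, with a mean of at least 50 counts, and others where a count of 5 or fewer fell to them. Genes of like pattern were those with the highest Pearson r of log2 CPM over the group means, among genes with a mean of at least 50 counts per library. Same-numbered replicates did not deviate together, with correlations from -0.0794 to 0.123 over 28 pairs of groups, so they were not treated as paired. The numbers in the titles of the WT SFN isosmotic libraries differ from those in the names of their count tables, and the titles were used. An extraction protocol in the labels speaks of primary cells, while all other labels name mIMCD3.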

Additional observations from a re-analysis of the deposited data

Results flagged for a closer look

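The effect of SFN on Cldn4 differed between isosmotic and stressed WT cells, and so did that on other junction genes and on transcription factors of junction genes. Each difference below is the log2 effect of SFN under stress minus that under isosmotic conditions, tested as an interaction term with edgeR's quasi-likelihood test. At 1 h it was 2.16 for Cldn4 (adjusted p = 6.86e-05), 1.35 for Ovol1 (0.0111), 1.29 for Gjb2 (0.00455), 1.09 for Klf4 (0.0324), 0.79 for Klf5 (0.0324), 0.70 for Pard6b (0.0324) and 0.67 for Cdh1 (0.0248). At 6 h it was 2.27 for Cldn4 (adjusted p = 2.76e-05, edgeR), 1.93 for Ovol1 (0.000521), 1.57 for Gjb2 (0.000943), 1.27 for Klf4 (0.00690), 0.74 for Cdh1 (0.00848), 0.72 for Pard6b (0.0198) and -0.71 for Arhgef18 (0.0159). The 2 tests share the isosmotic libraries.

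The effect of 1 h of stress differed between Nrf2-/- and WT cells with SFN for Klf4, by -1.60 on the log2 scale (adjusted p = 0.00585, edgeR interaction), and for Cldn6, by a fitted value of -8.48 (adjusted p = 0.0162). The value for Cldn6 was fitted against a WT group with 0 counts and is no estimate of size. Groups of 2 libraries were too small to look for single libraries that stand apart within a group.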

How the results depend on the processing

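Over 8 genes and 14 tests there were 112 effects, 35 of them called. In 759 of 811 alternative fits of the called effects the call was kept, while of the uncalled effects 45 were called in no alternative and 32 in at least 1. Most gains came with the 2 Nrf2-/- SFN 1 h libraries left out. For 1 h against isosmotic with DMSO, 2 genes were called, 1 with at least 10 counts in every library and 5 in the fit of the 12 WT libraries, without the 2 Nrf2-/- 1 h libraries or with the compared libraries alone. For 1 h with SFN, 2 were called, 1 at an adjusted p under 0.01, 1 with at least 10 counts in every library, 4 by DESeq2, 5 with the compared libraries and 7 in the WT fit or without the 2 Nrf2-/- 1 h libraries. For 6 h against 1 h with DMSO, 3 in place of 5 were called at an adjusted p under 0.01. For 6 h with SFN and for SFN under isosmotic conditions, 5 in place of 3 were called in the WT fit and without the 2 Nrf2-/- 1 h libraries. For SFN at 1 h and at 6 h, 1 in place of 0 was called without a filter, in the WT fit, without the 2 Nrf2-/- 1 h libraries and with the compared libraries. For Nrf2-/- against WT at 1 h, 3 in place of 6 were called with the compared libraries. The SFN interaction at 1 h had 2 in place of 1 in those same 4 alternatives, and that at 6 h had 2 without a filter, 3 in the WT fit, 3 without the 2 Nrf2-/- 1 h libraries and 2 with the compared libraries. The Nrf2-/- interaction had 0 in place of 1 at an adjusted p under 0.01, with at least 10 counts in every library and with the compared libraries.

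When 1 library at a time was dropped, the number called lay between 2 and 5 for 1 h with DMSO, 2 and 5 for 6 h with DMSO, 2 and 5 for 6 h against 1 h, 1 and 7 for 1 h with SFN, 2 and 6 for 6 h with SFN, 2 and 5 for SFN under isosmotic conditions, 0 and 1 for SFN at 1 h, 0 and 1 for SFN at 6 h, 7 and 8 for Nrf2-/- under isosmotic conditions, 6 and 8 for Nrf2-/- at 1 h, and 0 and 3 for 1 h in Nrf2-/- cells. For the interactions it lay between 1 and 3 at 1 h, 1 and 3 at 6 h, and 0 and 4 for Nrf2-/-. Many uncalled log2 changes turned direction in some alternative, among them Cldn4 (-0.22 to 0.22) and Cldn6 (-1.04 to 0.68) for 1 h in Nrf2-/- cells, Tjp1 (-0.41 to 0.18) and Cldn12 (-0.21 to 0.30) in the Nrf2-/- interaction, and Ocln for 6 h with SFN (-0.20 to 0.23). Of those that were also called in 1 alternative, the ones that turned without Nrf2-/- SFN 1 h replicate 2 were Cldn6 in Nrf2-/- against WT at 1 h (0.13), Cldn3 (0.21), Cldn7 (0.26) and Tjp1 (-0.12) for 1 h in Nrf2-/- cells, and Cldn3 in the Nrf2-/- interaction (0.093). Without replicate 1 it was Cldn1 for 1 h in Nrf2-/- cells (0.29). The lowest and highest values over the libraries left out were thus -0.49 and 0.29 for Cldn1, -0.42 and 0.21 for Cldn3, -0.53 and 0.26 for Cldn7 and -0.12 and 0.47 for Tjp1 in that comparison, -1.57 and 0.13 for Cldn6 in Nrf2-/- against WT at 1 h, and -0.53 and 0.093 for Cldn3 in the interaction. The cause was not tested. With the replicate number as a block, Cldn7 with SFN under isosmotic conditions lost its call (log2 fold change -0.73, edgeR adjusted p = 0.0676), and no other call was lost. RLE in place of TMM factors shifted the libraries by at most 0.0931 on the log2 scale. Depth limits Cldn6, with 0 to 121 counts, and Cldn8, with 0.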
